A study of Mus musculus with 3 samples.

Results

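The sites described here are 256 places in the mouse genome where a CAP-D3 peak of Rb+/+ cells overlapped a peak of RbΔL/ΔL cells, but where the 2 peaks were shifted against each other or differed in size. They were chosen from the positions and widths of both peak lists. An Rb+/+ peak was taken when it shared at least 1 bp with an RbΔL/ΔL peak and no such partner shared 50% or more of both widths. The regions of chromosome 2 at 98 to 99 Mb, chromosome 9 at 2.9 to 3.1 Mb and chromosome 17 at 39900000 to 40100000 bp were left out. The 256 sites were 3.13% of the 8181 Rb+/+ peaks outside those regions, and 24.3% of the 1053 that overlapped a RbΔL/ΔL peak. The other 797 are called closely matched below, and the 7128 Rb+/+ peaks that met no RbΔL/ΔL peak are called unmatched.

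CAP-D3 is a subunit of condensin II, a ring-shaped complex that compacts chromosomes and helps to hold their shape through interphase and mitosis. The retinoblastoma protein, best known as a repressor of E2F transcription factors, can bring condensin II to chromatin through its LXCXE-binding cleft. The RbΔL allele encodes a retinoblastoma protein with that cleft mutated.

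Both groups were primary mouse embryonic fibroblasts at passage 4, proliferating in culture, and chromatin was precipitated with an antibody to CAP-D3. The genotypes Rb+/+ and RbΔL/ΔL, the latter homozygous for the mutant allele, gave 1 ChIP library each. Input DNA was sequenced as a control and is not analysed here. Each list holds the peaks that the authors called in 1 library (8195 in Rb+/+ and 6437 in RbΔL/ΔL), and the number of reads behind them is unknown. With 1 library per genotype there was no replicate error to compare with and no test of genotype. All intervals are 95% intervals for counting error alone, exact for shares and from order statistics for medians. Differences of shares have Newcombe intervals. Positions are mm9, counted from 1. No annotation or sequence of that build was used, so the genes at these sites are not named and no bases are shown.

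The sites fell into 2 shapes of similar number. In 132 (51.6%, interval 45.3 to 57.8%) the narrower peak lay wholly inside the wider one, and these are called nested. In 124 (48.4%, interval 42.2 to 54.7%) both edges of the RbΔL/ΔL peak lay to the same side of the Rb+/+ edges, and these are called displaced. A nested site can pass the selection only when one peak is more than 2 times as wide as the other, whereas a displaced site need not differ in width. Of the displaced sites, 113 had a width ratio of 2 or less and were selected through their offset, and 11 exceeded that ratio. Most sites were simple pairs: in 245 of the 256, each peak met exactly 1 partner.

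**Figure D1:**
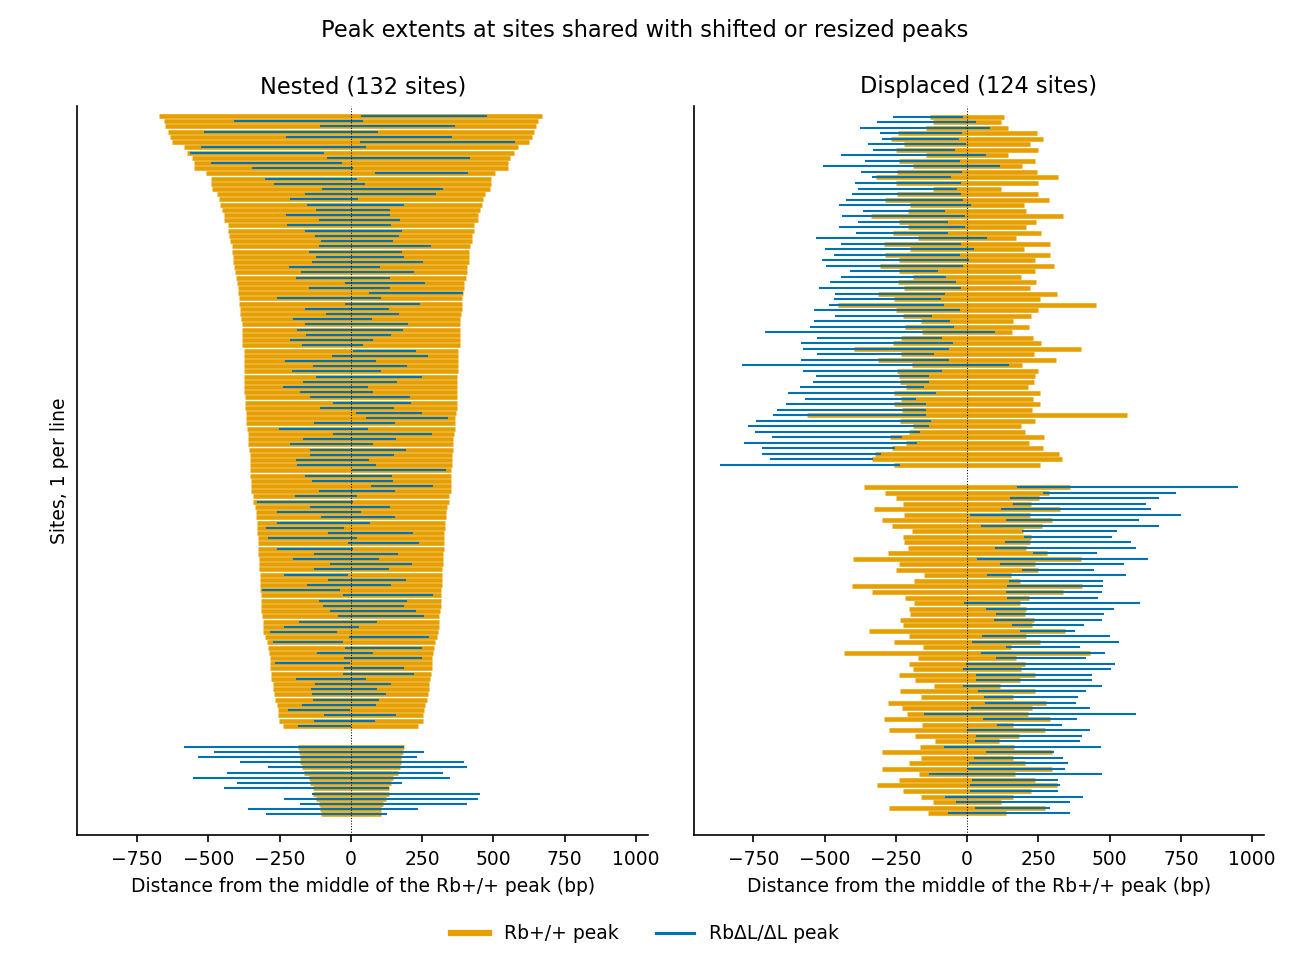
Extents of the 256 Rb+/+ peaks (orange) and their RbΔL/ΔL partners (blue), 1 site per line, as distance in bp from the middle of the Rb+/+ peak. On the left, 118 partners lie inside the Rb+/+ peak and 14 Rb+/+ peaks lie inside the partner. On the right, 64 partners are displaced to lower and 60 to higher coordinates.

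Nesting was lopsided between the genotypes. In 118 of the 132 nested sites the RbΔL/ΔL peak lay inside the Rb+/+ peak, and in 14 the reverse was found. Rb+/+ peaks were also the wider ones in the shared peaks as a whole (68.9% of 1053), and at 193 of the 256 sites (75.4%, interval 69.6 to 80.5%). The Rb+/+ peak was at least 1.5 times as wide as its partner at 146 sites (57.0%, against 28.6% of all shared peaks). The RbΔL/ΔL peak was wider by that factor at 32 (12.5%, against 7.60%). Widths decided which sites were chosen, so these shares describe the sites and are no test of a difference from other shared peaks.

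Where the RbΔL/ΔL peak was enclosed, the Rb+/+ peak was wide and the partner was narrow. The 118 Rb+/+ peaks had a median width of 734 bp (quartiles 641 and 816) and their partners 293.5 bp (quartiles 262 and 330). All Rb+/+ peaks of closely matched pairs had a median of 504 bp and their partners 448 bp. The median width ratio of the enclosed pairs was 2.39, and the ratios ran from 2.00 to 3.88. In the 14 pairs of the reverse kind, the Rb+/+ peaks had a median width of 290.5 bp and the RbΔL/ΔL peaks 690.5 bp. The displaced pairs had median widths of 470 bp for the Rb+/+ peak and 426 bp for its partner, and a median ratio of 1.13 (interval 1.01 to 1.24). They differed in both directions, and the wider peak was a median of 1.35 times as wide as the narrower (quartiles 1.14 and 1.66). The stretch covered by both peaks together had a median of 732.5 bp at nested sites (interval 702 to 749) and 712 bp at displaced sites (interval 681 to 750).

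**Figure D2:**
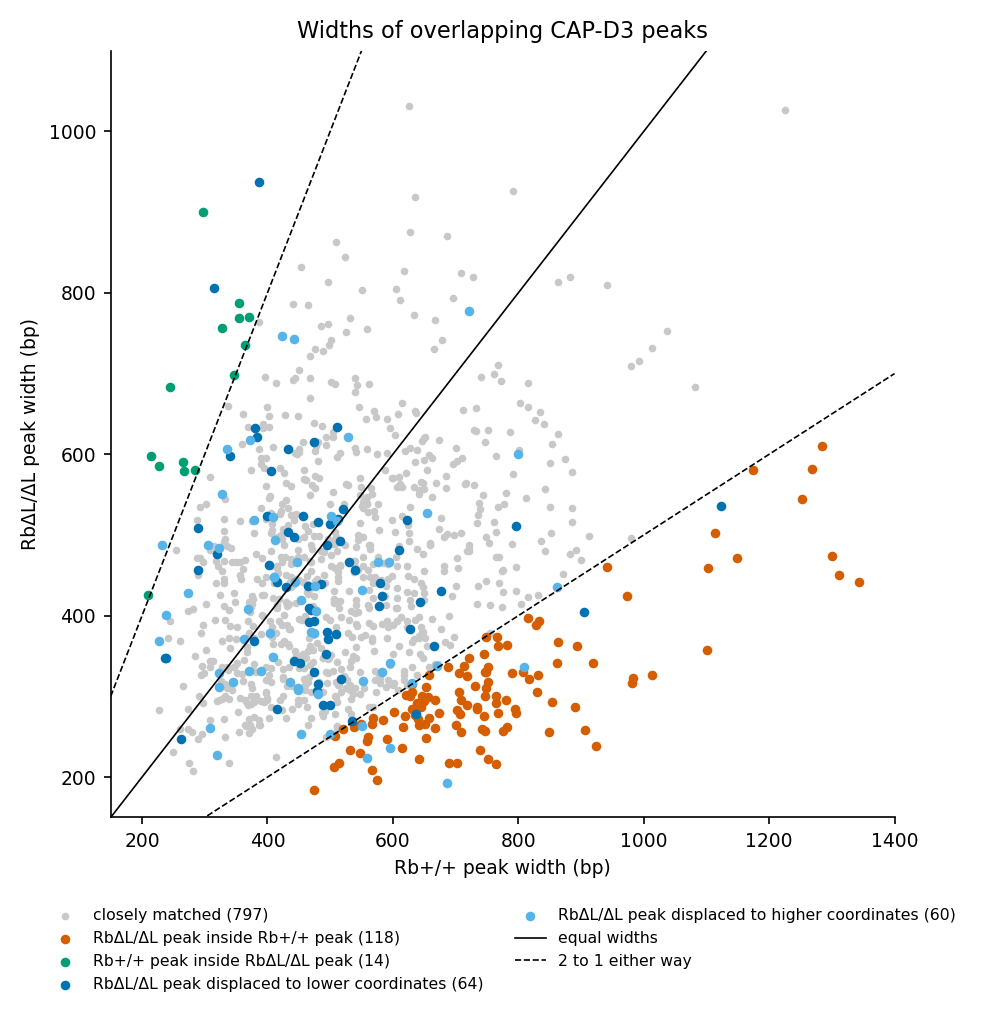
Width of the Rb+/+ peak against the width of its RbΔL/ΔL partner, in bp, for the 256 shifted or resized sites (coloured by shape) and the 797 closely matched peaks (grey). The 118 sites with an enclosed RbΔL/ΔL peak lie below the lower dashed line, and most displaced sites lie among the closely matched peaks.

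The enclosed RbΔL/ΔL peak covered the midpoint of the Rb+/+ peak at 99 of 118 sites (83.9%, interval 76.0 to 90.0%). The midpoints were a median of 68.5 bp apart (upper quartile 118). A RbΔL/ΔL peak of close to 50% of the width of the Rb+/+ peak around it covers that midpoint almost wherever it lies. These values are thus in part set by the nesting and are no test of centring. As enclosure implies, the Rb+/+ peak extended beyond its partner on both sides. The median overhang was 146 bp at the closer edge and 287 bp at the farther edge. An edge within 50 bp of the partner's was found at 16 sites (13.6%). The longer overhang lay on the low-coordinate side at 60 sites and on the high-coordinate side at 58.

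Wide Rb+/+ peaks are favoured by the selection, since any that is more than 2 times as wide as its partner is taken, so their counts are a description. Outside the regions left out, 19 Rb+/+ peaks exceeded 1000 bp. Of these, 13 were shifted or resized sites, 4 were closely matched and 2 were unmatched. Among RbΔL/ΔL peaks, 4 exceeded that width. Of the 75 shared Rb+/+ peaks of 800 bp or more, 37 were shifted or resized (49.3%, interval 37.6 to 61.1%), 32 of them with the partner enclosed. Between 400 and 600 bp, 92 of 495 were (18.6%), and 75 of these were displaced.

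The 5 highest-scoring sites were all of the enclosed kind. The score is the value that the authors' peak caller gave to each peak. It ranks peaks within a list only, and its lowest value is 50.02. The first of these sites lay on chromosome 8 at 124473763 to 124475063 in Rb+/+ (1301 bp, score 1399.27, rank 8). Its partner spanned 124474304 to 124474777 (474 bp, score 1027.05, rank 6), leaving 541 bp uncovered at the low end and 286 bp at the high end. The site stood among the first 10 peaks of both lists although the partner covered 36.4% of the Rb+/+ peak.

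On chromosome 3, the Rb+/+ peak at 135100805 to 135102088 (1284 bp, score 907.07, rank 16) enclosed a partner at 135100932 to 135101541 (610 bp, score 521.18, rank 33). There the overhang was uneven, with 127 bp at the low and 547 bp at the high end. On chromosome 11, the peak at 69208962 to 69209743 (782 bp, rank 26) enclosed one at 69209095 to 69209458 (364 bp, rank 47). On chromosome 2, the peak at 34726094 to 34726908 (815 bp, rank 32) enclosed one at 34726325 to 34726721 (397 bp, rank 15). This was the site among the 5, besides that on chromosome 8, where the RbΔL/ΔL peak stood higher in its own list. On chromosome 6, the peak at 83275680 to 83276384 (705 bp, rank 34) enclosed one at 83275870 to 83276175 (306 bp, rank 36), and the midpoints were 9.5 bp apart.

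The largest width ratio was 3.88, on chromosome 17, where an Rb+/+ peak at 33765656 to 33766579 (924 bp, score 208.03) enclosed a RbΔL/ΔL peak at 33765905 to 33766142 (238 bp, score 110.84). A ratio of 3.55 was found on chromosome 16 at 38712783 to 38713468 (686 bp), where a partner of 193 bp overran the high-coordinate edge by 37 bp. A ratio of 3.54 was found on chromosome 6 at 91465663 to 91466427 (765 bp), with a partner of 216 bp inside. These sites differed about equally in width, yet 2 were nested and 1 was displaced.

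At the other extreme, the narrowest Rb+/+ peaks relative to their partners were enclosed by them. On chromosome 9, an Rb+/+ peak of 297 bp at 44542745 to 44543041 (score 61.55) lay in a RbΔL/ΔL peak of 900 bp at 44542340 to 44543239 (score 104.35), a ratio of 0.330. On chromosome 13, the peak at 107737049 to 107737293 (245 bp) lay in one of 683 bp (ratio 0.359). On chromosome 19, the peak at 5001812 to 5002026 (215 bp) lay in one of 598 bp (ratio 0.360). RbΔL/ΔL peaks could thus be the wider ones by up to 3.03 times, although such sites were few.

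Displaced peaks were about evenly split between the directions along the chromosome. The RbΔL/ΔL peak lay toward lower coordinates at 64 of the 256 sites (interval 19.8 to 30.8%) and toward higher coordinates at 60 (23.4%, interval 18.4 to 29.1%). Among all 1053 shared peaks, 26.7% were displaced to each side. Over all 256 sites, the RbΔL/ΔL midpoint was the higher one at 125 (48.8%, interval 42.6 to 55.1%). The midpoints of displaced peaks were a median of 268.2 bp apart (quartiles 218 and 332). That distance was 58.3% of the mean width of the 2 peaks, and the peaks shared a median of 193 bp. Toward lower and higher coordinates the median distances were nearly the same, at 270.2 and 266.2 bp.

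Most of the farthest displacements left the peaks barely touching. Toward lower coordinates, the largest midpoint distance was 551.5 bp on chromosome 12, where the Rb+/+ peak at 31269735 to 31270245 shared 21 bp with a RbΔL/ΔL peak at 31269122 to 31269755. That RbΔL/ΔL peak was also the partner of a closely matched Rb+/+ peak at 31269078 to 31269446, with 325 bp shared. On chromosome 8, the peak at 13677122 to 13677786 shared 2 bp with its partner, 511.5 bp away. On chromosome 5, the peak at 125621670 to 125622312 shared 20 bp with its partner, 510.0 bp away. Toward higher coordinates, the largest distance was 562.5 bp on chromosome 7, between the Rb+/+ peak at 134920113 to 134920833 (721 bp) and a RbΔL/ΔL peak at 134920647 to 134921424 (778 bp). These were both wide and still shared 187 bp. The next were on chromosome 10 at 128356964 to 128357540 (500.5 bp apart, 21 bp shared) and on chromosome 8 at 80235536 to 80236037 (411.5 bp apart, 101 bp shared). The RbΔL/ΔL peak of this chromosome 8 site also met a second Rb+/+ peak, which counts as a site displaced toward lower coordinates. In all, 13 sites (5.08%) shared under 10% of the wider peak.

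Many sites lay close to the limit that separates them from closely matched peaks. At 133 of the 256 sites (52.0%), the shared length was between 40 and 50% of the wider peak. Just inside the limit lay a site on chromosome 12 at 29320320 to 29320950 and one on chromosome 2 at 120434715 to 120435462, both with an enclosed partner and 49.9% shared. The third was a displaced site on chromosome 2 at 174152505 to 174153054 with 49.8% shared. Just outside it lay peaks on chromosome 18 at 80666482 to 80666967 (a shared length exactly at the limit), chromosome 5 at 111082096 to 111082850 (50.2%) and chromosome 7 at 19881177 to 19881461 (50.3%). Sites on both sides of the limit were therefore nearly alike in overlap. With a limit of 40% there were 123 sites and with a limit of 60% there were 452.

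The scores, which the selection did not use directly, placed these sites between the closely matched and the unmatched peaks. A score of 100 or more was reached by 147 of the 256 Rb+/+ peaks (57.4%, interval 51.1 to 63.6%), against 12.6% of all 8181. For closely matched peaks the share was 69.1%, a difference of -11.7 points (interval -18.6 to -4.95), and for unmatched peaks it was 4.66%. A score of 200 or more was reached by 73 sites (28.5%) and by 41.3% of closely matched peaks, a difference of -12.8 points (interval -19.0 to -6.04). Scores below 60 were held by 40 sites (15.6%), 9.28% of closely matched and 47.8% of unmatched peaks. The share of shared peaks that were shifted or resized was lower in each higher band of Rb+/+ score. It was 35.1% of 114 peaks below 60 (interval 26.4 to 44.6%), 28.6% of 241 from 60 to 100, then 74 of 296 peaks from 100 to 200 (interval 20.2 to 30.3%), and 18.2% of 402 at 200 or more (interval 14.5 to 22.3%). The first and last of these intervals did not overlap, while neighbouring ones did.

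**Figure D3:**
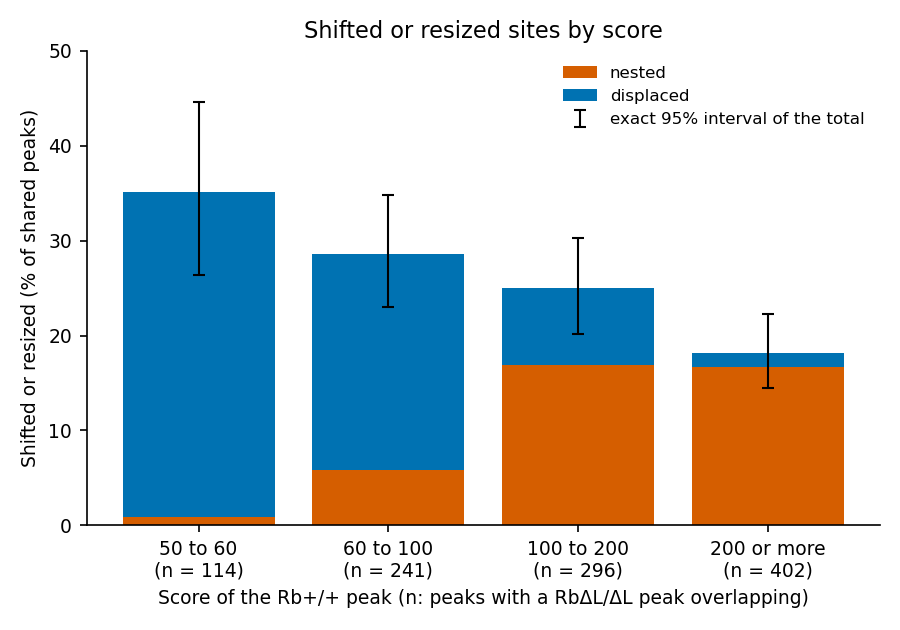
Share of the shared Rb+/+ peaks that were shifted or resized, in percent, by the score of the Rb+/+ peak; bars are split into nested and displaced sites, and lines are exact 95% intervals of the total. Below a score of 60, 39 of 40 sites were displaced, and at 200 or more, 67 of 73 were nested.

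Nested sites scored higher than displaced ones in both lists. The selection makes the shapes differ in width, and high-scoring Rb+/+ peaks were wider over the whole list. Their median width was 591.5 bp at a score of 200 or more, against 430 bp below 60. The part of width in the difference between the shapes was not tested. Of the nested sites, 117 of 132 (88.6%, interval 82.0 to 93.5%) had an Rb+/+ score of 100 or more, against 30 of 124 displaced sites (24.2%). The difference was 64.4 points (interval 53.9 to 72.4). The partners' scores in the RbΔL/ΔL list were split the same way, with 72.7% of nested and 19.4% of displaced sites at 100 or more (difference 53.4 points, interval 42.1 to 62.5). The median nested site stood in the top 5.13% of the Rb+/+ list and the top 7.01% of the RbΔL/ΔL list. The median displaced site stood in the top 27.7% and the top 36.2%. Closely matched pairs had the same order over a smaller gap. Their nested peaks had medians in the top 5.50% of the Rb+/+ list and the top 7.12% of the RbΔL/ΔL list. For their displaced peaks these were the top 8.29% and the top 11.5%. Among the 100 highest-scoring Rb+/+ peaks, 17 were shifted or resized, and all 17 were nested. Displaced sites thus ranked below nested ones, while their share at a score of 100 or more was still above the 12.6% of all Rb+/+ peaks. The best rank of a displaced site was the top 1.65% in the Rb+/+ list and, at another site, the top 1.30% in the RbΔL/ΔL list. The former, on chromosome 3, met 2 RbΔL/ΔL peaks that ran beyond its low and its high edge. It counts as displaced to lower coordinates because they shared 418 bp at the low and 366 bp at the high edge.

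**Figure D4:**
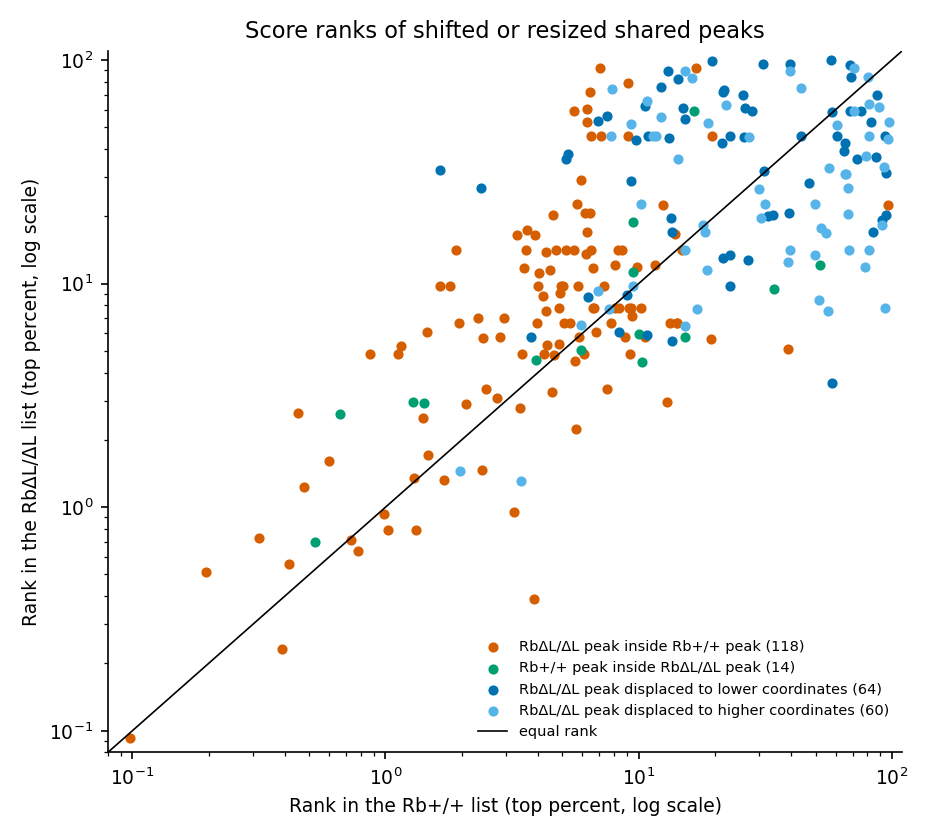
Rank of each of the 256 sites in the Rb+/+ list (horizontal) against the rank of its partner in the RbΔL/ΔL list (vertical), as top percent on log axes, coloured by shape. Nested sites reach the first 0.1% of both lists, while displaced sites (blue) lie lower, with medians at the top 27.7% and the top 36.2%.

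The scores of both lists were related across sites. Across the 256 pairs, Spearman's rho between the scores was 0.63, and across the 797 closely matched pairs it was 0.76. Within the nested pairs rho was 0.56 (n = 132) and within the displaced pairs 0.15 (n = 124). All pairs come from the same 2 libraries, displaced sites span a narrow range of scores, and sites are not replicates, so these values are descriptions. As a share of its list, the Rb+/+ peak had the higher rank at 149 of the 256 sites (58.2%, interval 51.9 to 64.3%) and at 59.8% of closely matched pairs. The share was 67.4% at nested sites (interval 58.7 to 75.3%) and 48.4% at displaced sites (interval 39.3 to 57.5%), a difference of 19.0 points (interval 6.94 to 30.4). The Rb+/+ list is the longer one, which affects such shares.

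Width had no steady relation to score over either whole list, though median widths rose from the band of 60 to 100 upward. Outside the regions left out, Rb+/+ peaks had median widths of 430, 395, 515 and 591.5 bp in the score bands below 60, 60 to 100, 100 to 200 and 200 or more. RbΔL/ΔL peaks had medians of 446, 376, 386.5 and 473 bp in the same bands. Spearman's rho of width with score was 0.06 across the 8181 Rb+/+ and -0.19 across the 6422 RbΔL/ΔL peaks, as a description. Among the sites described here, the Rb+/+ peaks had a median width of 448 bp below 60 and 745 bp at 200 or more. Their partners had medians of 438 bp below a score of 60 and 341 bp at 200 or more. In closely matched pairs, the partners at 200 or more were wider, at 482 bp. Of the 35 sites with a partner at 200 or more, 28 had it enclosed in the Rb+/+ peak. The selection takes enclosed partners only when narrow against that peak, and closely matched pairs leave such partners out. The medians of the sites are thus in part set by the selection and are no test of a difference from closely matched pairs. The part of read depth, which is unknown, in the widths of the lists and of the sites was not tested.

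At 4 sites the Rb+/+ peak met 2 RbΔL/ΔL peaks. On chromosome 2, the peak at 84555030 to 84556341 (1312 bp, score 237.93) enclosed RbΔL/ΔL peaks of 450 bp (score 132.38) and 312 bp (score 70.16) with 34 bp between them. On chromosome 3, the peak at 152058716 to 152059839 (1124 bp, score 428.87) bridged a gap of 340 bp. The RbΔL/ΔL peaks there had 536 bp (score 75.06) and 487 bp (score 254.82) and ran beyond its low and high edges. On chromosome 4, the peak at 109348841 to 109349340 (500 bp) bridged a gap of 99 bp, and on chromosome 11 the peak at 77845385 to 77846037 (653 bp) bridged one of 210 bp. These 4 sites were thus 1 interval in Rb+/+ and 2 intervals in RbΔL/ΔL.

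The reverse, 1 RbΔL/ΔL peak meeting 2 Rb+/+ peaks, accounted for 7 sites at 5 RbΔL/ΔL peaks. On chromosome 9, the RbΔL/ΔL peak at 20896091 to 20896712 (622 bp, score 86.92) met Rb+/+ peaks of 529 bp (score 71.85) and 383 bp (score 96.63), neither of which shared 50% with it. On chromosome 8, the RbΔL/ΔL peak at 80235937 to 80236459 (523 bp) met Rb+/+ peaks of 502 and 457 bp, sharing 101 and 85 bp with them. At the other 3, on chromosomes 2, 11 and 12, one of the Rb+/+ peaks was closely matched. The second touched the same RbΔL/ΔL peak by 55, 40 and 21 bp. These peaks were chosen for description after their values were seen.

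The sites were spread over all 20 chromosomes on which peaks were listed. The largest numbers were 23 each on chromosomes 2, 5 and 11, and chromosome 11 held the most per Mb (0.189). The X chromosome held 2. As a share of shared peaks, they ranged from 12.5% on X (2 of 16, interval 1.55 to 38.3%) to 36.0% on chromosome 6 (18 of 50, interval 22.9 to 50.8%). On each of the 20 chromosomes, the interval of this share included the overall 24.3%. Another such site lay within 10 kb of 4 of the 256 and within 1 Mb of 97, and the median distance to the nearest was 1.66 Mb.

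Near the chromosome ends the sites were not separated from other peaks. In the 5 Mb from 3 Mb on, where the assembled sequence next to the centromere begins, lay 6 sites (2.34%, interval 0.865 to 5.03%). The share of closely matched peaks there was 4.89%, and the difference of -2.55 points had an interval of -4.69 to 0.421. In the last 5 Mb lay 10 sites (3.91%, interval 1.89 to 7.07%), against 5.40% of closely matched peaks (difference -1.49 points, interval -4.01 to 1.93).

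Another Rb+/+ peak within 10 kb was found at 56 sites (21.9%), against 16.8% of all 8181 Rb+/+ peaks. The share was 18.3% for closely matched peaks (difference 3.56 points, interval -1.87 to 9.57) and 16.5% for unmatched peaks (difference 5.38 points, interval 0.666 to 10.9). At 7 sites the partner also met a second Rb+/+ peak, so these had a close neighbour by construction, which cannot arise for unmatched peaks. Among sites in 1-to-1 pairs, 19.6% had a neighbour within 10 kb (interval 14.8 to 25.1%). Displaced sites had such a neighbour in 24.2% and nested sites in 19.7%, a difference of -4.50 points for nested minus displaced (interval -14.6 to 5.63). Having a close neighbour was thus not separated between the shapes at these numbers.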

How the data were processed

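CAP-D3 ChIP-seq peaks of 1 Rb+/+ and 1 RbΔL/ΔL library were analysed. The submitters' processing notes name Bowtie 1.0, MACS 1.4.2 and the build mm9. Parameters, control and treatment of duplicate reads are not given in these sources, and each can change the listed edges, and with them which sites count as shifted. The deposited score per peak has no stated meaning and was used by rank and band within a list. The deposited positions, another column of the authors' lists, all ended within the mm9 lengths held in GenomeInfoDb 1.38.1.

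For each site the partner with the longest shared length was used, in Python 3.11.15 with pandas 2.3.3, numpy 2.4.6, scipy 1.17.1 and matplotlib 3.10.9. As a check of the code, the rule was run on simulated peaks and recovered 896 of 896 shifted or resized sites among 8195, each in its shape. The simulated peaks had at most 1 partner, displaced pairs had equal widths, and no pair lay near the 50% limit. Full recovery was therefore fixed beforehand and says nothing about sites near the limit. Read depth is unknown. The sites, bands and alternatives were chosen with earlier results of these data known. Peaks named one by one have the 5 highest Rb+/+ scores, the 3 largest shifts and width ratios each way, several partners, or the 3 places nearest the limit on each side. Alternatives were limits of 40 and 60%, lists of equal length, a minimum score of 100, the regions kept, 1-to-1 pairs, the mirrored rule, an overlap of 50 bp, the partner of highest score, and other zones and distances.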

Additional observations from a re-analysis of the deposited data

How the results depend on the processing

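Of 90 values recomputed with other settings for 12 results, 70 stayed and 20 moved. A number of sites stayed when within 1.5 times, and a share, median or difference when within the 95% interval. Only the difference between nested and displaced sites could change sign, and it did not. The share of sites with the higher midpoint in RbΔL/ΔL, 48.8% at the limit of 50%, was 53.7% at 40% and 50.2% at 60%. Lists of equal length, 1-to-1 pairs, keeping the 3 regions, an overlap of 50 bp and the partner of highest score moved none of the results run under them. Equal lists kept 235 of the 256 sites, 1-to-1 pairs 245 and the overlap of 50 bp 243, so little could move. That overlap was run for the number of sites alone, and the partner of highest score for nesting alone. Keeping the 3 regions could move nothing, since no peak in them met the selection. The partner of highest score could alter only the 4 sites with 2 partners. With a limit of 40% there were 123 sites, 39.8% nested, with a median width ratio of 1.44, a midpoint distance of 256 bp and a median rank in the top 13.6%. With a limit of 60% there were 452 sites, a midpoint distance of 144 bp, and 48.7 points between nested and displaced sites at a score of 100 or more (64.4 at the limit of 50%). With a minimum score of 100 in both lists there were 99 sites, 87.9% nested and 87.9% wider in Rb+/+. Their median ratio was 2.28, their midpoint distance 76.0 bp, their median rank within the shortened list the top 33.0%, and 1.01% had a neighbour within 10 kb. The mirrored rule gave 258 RbΔL/ΔL peaks, with a median rank in the top 14.2% of their list and 53.0 points between the shapes. Zones of 10 Mb held 9.77% at the distal end, and neighbours within 1 kb and 100 kb were found at 7.81% and 75.8%, as these definitions set. No paired analysis was possible because only 1 library per genotype was made, which also leaves none to omit. Gene features were not run. Unknown depth limits what peaks near the lowest score can show.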

Other observations

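Seen from the RbΔL/ΔL list, the mirrored rule took 258 peaks, and 251 pairs were the same under both rules. Of the 258, 119 lay inside a Rb+/+ peak and 14 enclosed one.

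The RbΔL/ΔL peaks enclosed in Rb+/+ peaks and the Rb+/+ peaks around them differed in how often their score was a value held by many peaks. A score was called recurring when 20 or more peaks of a list held it, a bound chosen after the values were seen. Recurring scores were held by 35 of the 118 enclosed RbΔL/ΔL peaks (29.7%, interval 21.6 to 38.8%) and by 1 of the 118 Rb+/+ peaks around them (0.847%, interval 0.0215 to 4.63%). Over whole lists the shares were 23.8% of RbΔL/ΔL peaks, which lies within the interval of the enclosed ones, and 33.4% of Rb+/+ peaks. With bounds of 10 and 50 peaks, the share of enclosed RbΔL/ΔL peaks was 39.8% and 18.6%. The score 143.33 was held by 20 RbΔL/ΔL peaks, of which 8 were enclosed ones with widths of 217 to 322 bp, while the Rb+/+ peaks around them scored 93.73 to 389.3. The score 95.25 was held by 140 RbΔL/ΔL peaks, 12 of them partners of the sites described here, with widths of 223 to 318 bp. In closely matched pairs with the RbΔL/ΔL peak inside, recurring scores were held by 41 of 259 RbΔL/ΔL peaks (15.8%, interval 11.6 to 20.9%). The share was 2.70% for the Rb+/+ peaks around those. The contrast between the lists was thus not particular to the sites described here. The reason for the recurring values was not tested.

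Among displaced sites, the Rb+/+ peak had the higher rank at 37 of the 64 with the partner toward lower coordinates (57.8%) and at 23 of the 60 with it toward higher coordinates (38.3%). The difference was 19.5 points (interval 1.90 to 35.4), and in closely matched displaced pairs it was 5.17 points (interval -4.06 to 14.3). This split was looked at after its values were seen, as 1 of many, and its interval is not adjusted for that. The median Rb+/+ peak stood in the top 24.4% of its list where the partner lay lower. Where the partner lay higher it stood in the top 39.3%, and such shares vary with that rank.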
